A study of Mus musculus with 12 samples.

Results

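The genes described here encode 10 enzymes of mitochondrial fatty acid oxidation: Cpt1a, Cpt2, Acadm, Acadl, Acadvl, Hadha, Hadhb, Etfa, Etfb and Etfdh. They were chosen by symbol as the core of the long- and medium-chain pathway, without use of measured values, and all 10 were found among the 12339 genes of the deposited count table. RNA sequencing was done on macrophages that thioglycolate had drawn into the mouse peritoneum. Mice were wild type (WT) or carried the genotype that the labels call meKO, taken here to be the myeloid knockout of protein kinase C epsilon (gene Prkce) from the series title. Which Cre line was used is not stated in the labels. Mice of both genotypes were 8 weeks old when injected with AAV8PCSK9, a viral vector used to remove the LDL receptor from liver cells, and the chow groups carried the vector too. They then stayed on chow or were fed a high-fat Western diet (HFD) for 4 weeks. Each of the 4 combinations of genotype and diet had 3 libraries. The labels describe 8 mice of each genotype, 4 of them on HFD, and do not tie a library to a culture or a pool. The p-values below therefore measure the spread between these libraries, which may be technical in part.

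Long-chain fatty acids enter mitochondria as carnitine esters, made by Cpt1a at the outer membrane and turned back into acyl-CoA by Cpt2 at the inner membrane. Acyl-CoA dehydrogenases of different chain-length preference then open each cycle of oxidation, and the trifunctional protein, built from Hadha and Hadhb, carries long chains through the remaining steps. Electrons from the dehydrogenases pass to the electron transfer flavoprotein, a pair of Etfa and Etfb, and from there through Etfdh to ubiquinone. In macrophages the pathway is best known for its link to alternative activation and to the handling of lipid taken up from lipoproteins.

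Libraries held 25844958 to 37282772 counts over the listed genes. Prkce stood at 2.01 to 4.44 CPM (counts scaled by library size with TMM factors) in the 6 WT libraries and at 0.950 to 1.78 CPM in the 6 meKO libraries, without overlap. All 7 macrophage markers examined (Adgre1, Csf1r, Cd68, Itgam, Mertk, Fcgr1 and Lyz2) were present, while Adipoq, Plin1, Cfd, Lep and Cidec of 6 adipocyte markers and Ly6g, Mpo, Elane, Camp and Ngp of 10 neutrophil markers were not analysed here. WT chow replicates 1 and 2 stood apart: their deviation from the mean of each gene rose with transcript length (Spearman's rho across 11532 genes 0.64 and 0.683), against -0.463 to 0.133 in the other 10 libraries. Genes in a library are not independent replicates, and rho is a description. Because these are the libraries of WT chow, the diet difference of each of the 10 genes in WT is given below with and without them, as are the values of other pathway genes that passed. With both left out, 15 genes of all those tested were called for diet in WT in place of 2634, from a fit in which the remaining WT chow library is assumed to vary like the other groups.

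Per length of transcript, Etfb was the most abundant at 92.3 ± 25.3 CPM per kb (SD, n = 12 libraries), followed by Etfa at 59.1 ± 5.06, Acadl at 52.7 ± 9.04, Acadm at 52.3 ± 5.90, Hadha at 47.7 ± 3.11 and Cpt1a at 47.3 ± 7.97. Acadvl (27.4 ± 2.16) and Etfdh (25.0 ± 2.09) were lower, and Hadhb (11.7 ± 1.55) and Cpt2 (9.46 ± 0.947) were the lowest. Etfb was above Etfa in 12 of 12 libraries, Cpt1a above Acadvl in 12, Etfdh above Hadhb in 12 and Hadhb above Cpt2 in 12. Neighbours in the middle of the order were not separated: Acadl was above Acadm in 6 of 12 libraries, Acadm above Hadha in 9 and Hadha above Cpt1a in 8. Hadha and Hadhb, the partners of the trifunctional protein, thus stood at different levels per length as counted. Near copies of Hadhb, described below, leave its level and its place in this order uncertain. The coefficient of variation over the 12 libraries was largest for Etfb (27.4%) and smallest for Hadha (6.52%). Counts behind these levels ran from 570 (Cpt2) to 9272 (Cpt1a) per gene and library.

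**Figure D1:**
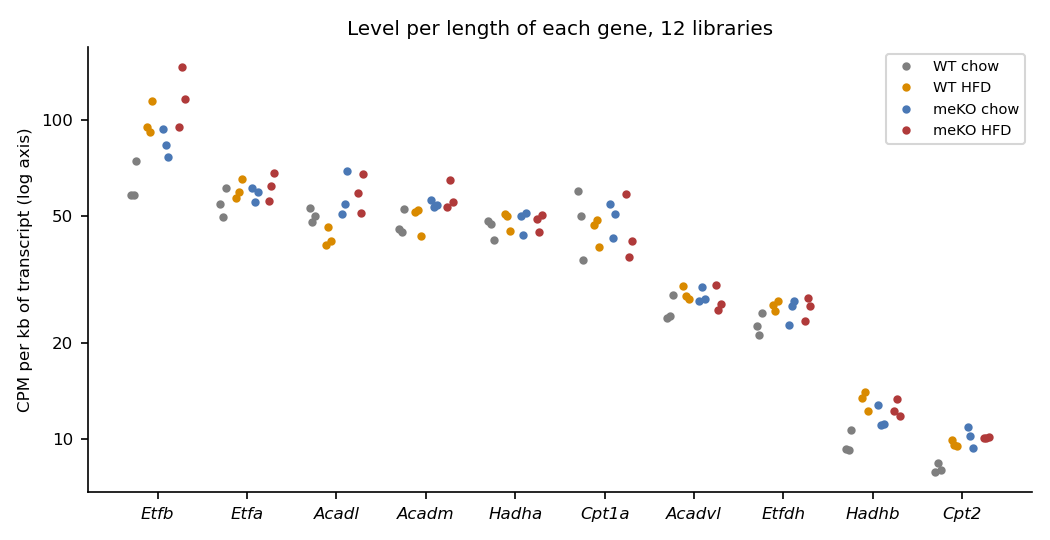
Each point is 1 of the 12 libraries, with CPM per kb of the longest protein-coding transcript on a log axis, genes ordered by their mean and coloured by group. Etfb lies at 58.3 to 147 CPM per kb and Cpt2 at 7.84 to 10.9, and the points of Acadl, Acadm, Hadha and Cpt1a overlap.

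On HFD, 2 of the 10 genes rose in WT macrophages, Etfb by 0.66 ± 0.16 and Hadhb by 0.45 ± 0.11 on the log2 scale (± SE), and none fell (edgeR's quasi-likelihood test, Benjamini-Hochberg adjusted p under 0.05 over all genes). Of all genes, 21.3% were called in the same comparison, so a count of 2 in 10 is near the background. In meKO macrophages 0 of 10 passed for diet (0.105% of all genes), and 1, Etfb, had an unadjusted p under 0.05. Between genotypes 0 of 10 passed on chow (0.081% of all genes) and 0 on HFD (0.081%), with 3 and 1 genes at an unadjusted p under 0.05. The genotype by diet interaction called 0 of 10 (0.0162% of all genes), with 1 at an unadjusted p under 0.05. Averaged over genotypes, diet again called Etfb and Hadhb (30.2% of all genes), and averaged over diets, genotype called 0 of 10 (0.17%), with 4 at an unadjusted p under 0.05. By limma-voom the count was 0 in each of the comparisons with 0. By DESeq2 it was 0 for diet in meKO, genotype on HFD and the interaction, while Cpt2 passed for genotype on chow (adjusted p = 0.0239) and Acadl for genotype averaged over diets (adjusted p = 0.0325). DESeq2 called 591 of all 12339 genes for genotype on chow and 366 averaged over diets.

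The median log2 difference of the 10 genes was 0.15 for diet in WT, against -0.03 over all genes (0.14 with WT chow replicates 1 and 2 left out), and 0.03 for diet in meKO, against -0.01. For genotype it was 0.17 on chow, against -0.0012 over all genes (10 of 10 above 0), and 0.03 on HFD, against 0.02. With WT chow replicates 1 and 2 left out, the median on chow was 0.15 (8 of 10 above 0). With a correction for transcript length and GC content it was 0.11 (9 of 10 above 0). The CPM of both groups did not overlap for 5 of 10 genes for diet in WT (39.3% of all genes), 4 higher and 1 lower on HFD; this count includes WT chow replicates 1 and 2 and was not made without them. The same held for 1 of 10 for diet in meKO (19.7%), 4 of 10 for genotype on chow (17.1%) and 3 of 10 on HFD (10.3%), all higher. Those on chow, a count that also includes WT chow replicates 1 and 2, were Cpt2, Acadm, Hadhb and Etfb.

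**Figure D2:**
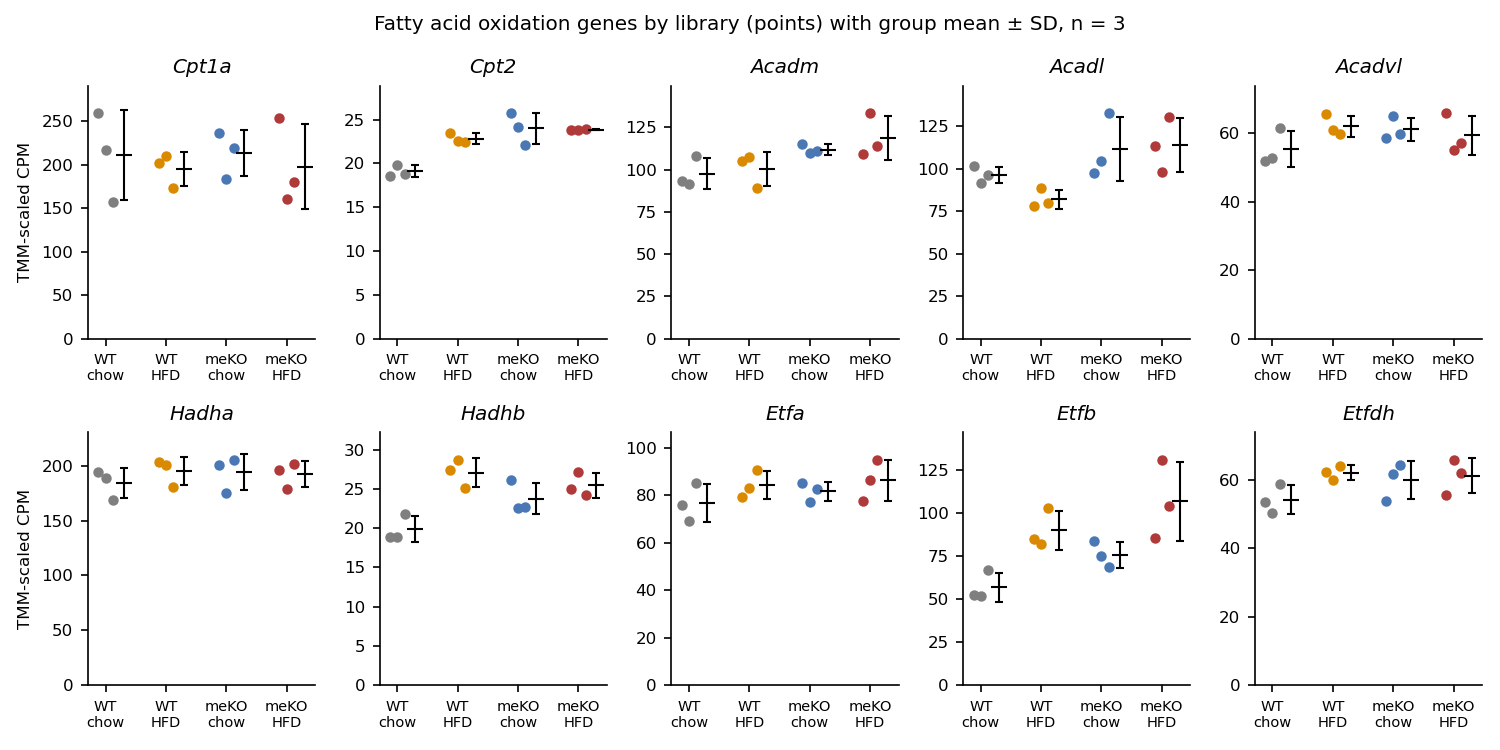
TMM-scaled CPM of each gene on a linear axis from 0, with 1 point per library and the group mean ± SD (n = 3) beside it. Etfb and Hadhb in WT chow lie below the other 3 groups, while Hadha and Cpt1a overlap in all 4 groups.

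In WT, some markers of other cell types passed for diet, in a comparison that called 21.3% of all genes. Those that passed for diet in WT were 3 of 5 neutrophil, 3 of 6 B cell, 2 of 6 dendritic cell and 2 of 9 mesothelial and fibroblast markers, and 1 of 7 in each of the macrophage, resident macrophage, T and NK cell and mast cell lists. Of 3 eosinophil markers and 1 adipocyte marker, 0 passed. Averaged over genotypes, where 30.2% of all genes were called, 5 of 7 macrophage and 6 of 6 B cell markers passed for diet. So did 3 of 5 neutrophil, 3 of 9 mesothelial and fibroblast, 2 of 7 resident macrophage and 2 of 6 dendritic cell markers. The others were 1 of 7 T and NK cell, 1 of 3 eosinophil, 0 of 7 mast cell and 0 of 1 adipocyte markers. These counts include WT chow replicates 1 and 2 and were not made without them. The summed level of 6 of 7 B cell markers (Pax5 was not analysed here) was 107 to 164 CPM in WT chow and 52.2 to 87.5 in WT HFD, 72.7 to 160 in meKO chow and 55.7 to 111 in meKO HFD. For 6 of 6 dendritic cell markers it was 116 to 142 CPM in WT chow, 66.7 to 83.2 in WT HFD, 59.3 to 123 in meKO chow and 67.1 to 88.4 in meKO HFD. For 9 of 10 mesothelial and fibroblast markers (Krt18 was not analysed here) it was 50.6 to 90.5 CPM in WT chow, 91.7 to 138 in WT HFD, 50.01 to 95.01 in meKO chow and 110 to 136 in meKO HFD. The neutrophil sum was 53.4 to 80.4 CPM in WT chow, 70.2 to 73.4 in WT HFD, 78.3 to 97.6 in meKO chow and 77.8 to 112 in meKO HFD, so it was higher in meKO with some overlap. With genotype, the summed level of the 7 macrophage markers was 35860 to 59220 CPM in the WT libraries and 5521 to 27240 in the meKO libraries. In 11 of the 12 libraries most of this sum was Lyz2, at 30480 to 53840 CPM in WT and 16290 to 21310 in 5 of the 6 meKO libraries, and in meKO chow replicate 2 Lyz2 was at 69.3 CPM. The fitted genotype difference of Lyz2 averaged over diets was -1.22 ± 0.88 (adjusted p = 0.468). Without meKO chow replicate 2, the genotype comparisons again called 0 of the 10 genes. Adgre1 gave -0.05 ± 0.07 for genotype averaged over diets (adjusted p = 0.702). The part of these markers in the results below was not tested. In bulk RNA, fewer cells of a type and less RNA per cell cannot be told apart.

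Neither gene of the carnitine shuttle passed the test for diet or genotype. Cpt1a (chr19:3322334-3385733, plus strand, GRCm38), the rate-limiting entry step that malonyl-CoA inhibits, stood at 260, 217 and 157 CPM in WT chow and 203, 210 and 173 in WT HFD. In meKO it was at 236, 184 and 219 CPM on chow and 253, 160 and 180 on HFD. The 4 groups overlapped throughout. Its diet difference was -0.11 ± 0.19 in WT (adjusted p = 0.683) and -0.11 ± 0.19 in meKO (adjusted p = 0.802). With WT chow replicates 1 and 2 left out, the value in WT was 0.31 ± 0.23 (adjusted p = 0.672), so its sign rested on them.

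Cpt2 (chr4:107903981-107923610, minus strand) stood at 18.6, 19.9 and 18.8 CPM in WT chow and at 23.5, 22.6 and 22.4 in WT HFD. It was at 25.8, 24.1 and 22.2 CPM in meKO chow and at 23.8, 23.8 and 23.9 in meKO HFD. The WT chow libraries were thus below the other 9. Cpt2 differed between genotypes on chow by 0.33 ± 0.10 (unadjusted p = 0.00491, adjusted p = 0.124) and by diet in WT by 0.26 ± 0.10 (adjusted p = 0.0733). Neither passed, and the diet difference in meKO was -0.01 ± 0.10. With WT chow replicates 1 and 2 left out, both values kept their size, 0.35 ± 0.14 for genotype on chow and 0.28 ± 0.14 for diet in WT (adjusted p = 0.9999 and 0.536).

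Among the acyl-CoA dehydrogenases none passed in any comparison. Acadl, the long-chain enzyme (chr1:66830839-66863277, minus strand), was lower in WT HFD than in any other group. It stood at 101, 91.8 and 96.3 CPM in WT chow and 77.8, 88.3 and 79.9 in WT HFD. The meKO libraries held 97.5, 104 and 133 CPM on chow and 113, 98.2 and 130 on HFD. On HFD the meKO libraries were above WT without overlap, by 0.47 ± 0.13 (unadjusted p = 0.00303, adjusted p = 0.473). Averaged over diets the genotype difference was 0.34 ± 0.09 (adjusted p = 0.149), and diet in WT gave -0.23 ± 0.13 (adjusted p = 0.201). Without WT chow replicates 1 and 2 these values were 0.47, 0.34 and -0.23. With a correction for transcript length and GC content they were 0.43, 0.23 and -0.48 (adjusted p = 0.643, 0.357 and 0.0680), so the diet value in WT moved by over 1.5 times.

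Acadm, the medium-chain enzyme (chr3:153922357-153944632, minus strand), stood at 93.4, 91.2 and 108 CPM in WT chow and 105, 107 and 88.9 in WT HFD. In meKO its level was 115, 110 and 111 CPM on chow and 109, 133 and 114 on HFD. On each diet the meKO libraries were all above the WT libraries, by 0.20 ± 0.11 on chow (adjusted p = 0.331) and 0.24 ± 0.11 on HFD (adjusted p = 0.999). Its averaged genotype difference, 0.22 ± 0.08 (unadjusted p = 0.0161, adjusted p = 0.204), fell to 0.14 ± 0.10 without WT chow replicates 1 and 2. Acadvl, the very-long-chain enzyme bound to the inner membrane (chr11:70010183-70015411, minus strand), ranged from 51.9 to 61.4 CPM in WT chow and from 55.1 to 65.8 over the other groups. Its exons share 1151 bases with Dvl2 on the other strand, and since the strand setting of the counting is not given in the sources used here, its level is uncertain. Diet in WT gave 0.17 ± 0.11 for Acadvl (adjusted p = 0.268).

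The trifunctional protein genes lie head to head on chromosome 5, Hadha at chr5:30118304-30155162 on the minus strand and Hadhb at chr5:30155248-30184593 on the plus strand, with starts 86 bases apart. Their promoter windows (RefSeq, GRCm38.p6, 250 bases before to 50 after the start, each read 5′ to 3′ on the strand of its gene) share 228 bases. They are shown because the windows of both genes overlap. The windows were placed on RefSeq starts, while the 86 bases lie between GENCODE starts. Capitals mark the GC box (GGGCGG), the only motif found here among those searched on both strands, which also took in the nuclear receptor hexamer AGGTCA, its direct repeat with 1 base between, the estrogen-related receptor site TCAAGGTCA (which contains the hexamer), the CCAAT box and the cyclic AMP element TGACGTCA.
Hadha, chr5:30154931-30155230: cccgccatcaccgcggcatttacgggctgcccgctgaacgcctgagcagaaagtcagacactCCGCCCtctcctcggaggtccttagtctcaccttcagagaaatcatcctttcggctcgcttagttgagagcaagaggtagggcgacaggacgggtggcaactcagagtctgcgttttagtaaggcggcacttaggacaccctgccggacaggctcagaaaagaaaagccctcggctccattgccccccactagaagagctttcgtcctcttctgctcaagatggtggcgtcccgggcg
Hadhb, chr5:30155003-30155302: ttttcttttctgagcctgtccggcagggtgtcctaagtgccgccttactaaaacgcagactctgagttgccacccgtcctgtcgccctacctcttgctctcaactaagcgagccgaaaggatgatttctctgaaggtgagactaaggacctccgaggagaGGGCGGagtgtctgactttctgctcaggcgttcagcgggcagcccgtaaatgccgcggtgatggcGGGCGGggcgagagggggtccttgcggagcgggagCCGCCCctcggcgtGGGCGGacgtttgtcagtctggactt
The Hadhb window holds 4 GC boxes and the Hadha window 1, which is the same stretch as 1 of the 4 read from the other strand. GC boxes were found in the windows of 7 of the 10 genes and in 35.66% of 32851 promoter windows. A match is a description, not a bound site.

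Hadhb, the beta subunit that carries the thiolase step, rose on HFD in WT and was higher in the other 3 groups than in WT chow. It stood at 18.9, 18.9 and 21.9 CPM in WT chow and 27.4, 28.8 and 25.1 in WT HFD. The values in meKO were 26.1, 22.6 and 22.7 CPM on chow and 25.0, 27.2 and 24.2 on HFD. The diet difference was 0.45 ± 0.11 in WT (1.36-fold, adjusted p = 0.0217, higher in 3 of 3 HFD libraries than in any chow library) and 0.10 ± 0.11 in meKO (adjusted p = 0.678). The difference between these effects was itself -0.35 ± 0.16 (unadjusted p = 0.0462, adjusted p = 0.797), which did not pass. Averaged over genotypes the rise was 0.27 ± 0.08 (adjusted p = 0.0235).

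The call for Hadhb in WT was lost with WT chow replicates 1 and 2 both left out (0.31 ± 0.15, adjusted p = 0.535), without WT chow replicate 1 (adjusted p = 0.105) or 2 (0.0882) and without WT HFD replicate 1 (0.0617), 2 (0.0555) or 3 (0.0731). It was also lost with a correction for transcript length and GC content (0.25, adjusted p = 0.127). The averaged rise was 0.20 with both libraries left out (adjusted p = 0.222) and 0.12 with the length and GC correction (adjusted p = 0.264). It also missed the threshold with scaling by library totals (0.21, adjusted p = 0.0532), without either of WT chow replicates 1 and 2, either of WT HFD replicates 1 and 2, meKO chow replicate 2 or 3, or meKO HFD replicate 2 (0.0504 to 0.0639). A processed pseudogene, Gm13910, matches 1428 bases of the Hadhb transcript at 99.8% identity and Gm9108 matches 1426 at 97.6%, so the level of Hadhb is uncertain where reads of these copies were shared.

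Hadha, the alpha subunit with the hydratase and dehydrogenase steps, stood at 194, 189 and 169 CPM in WT chow and 204, 201 and 180 in WT HFD. In meKO, Hadha stood at 201, 176 and 206 CPM on chow and 197, 179 and 202 on HFD. All 4 groups overlapped. Diet in WT gave 0.08 ± 0.10 (adjusted p = 0.581) and in meKO -0.01 ± 0.10. With the length and GC correction, the value in WT was 0.31 ± 0.07 (adjusted p = 0.0197), beside the corrected 0.25 of Hadhb, and averaged over genotypes it was 0.19 ± 0.05 (adjusted p = 0.0186). The Hadha transcript has 4017 bases and that of Hadhb 2048.

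**Figure D3:**
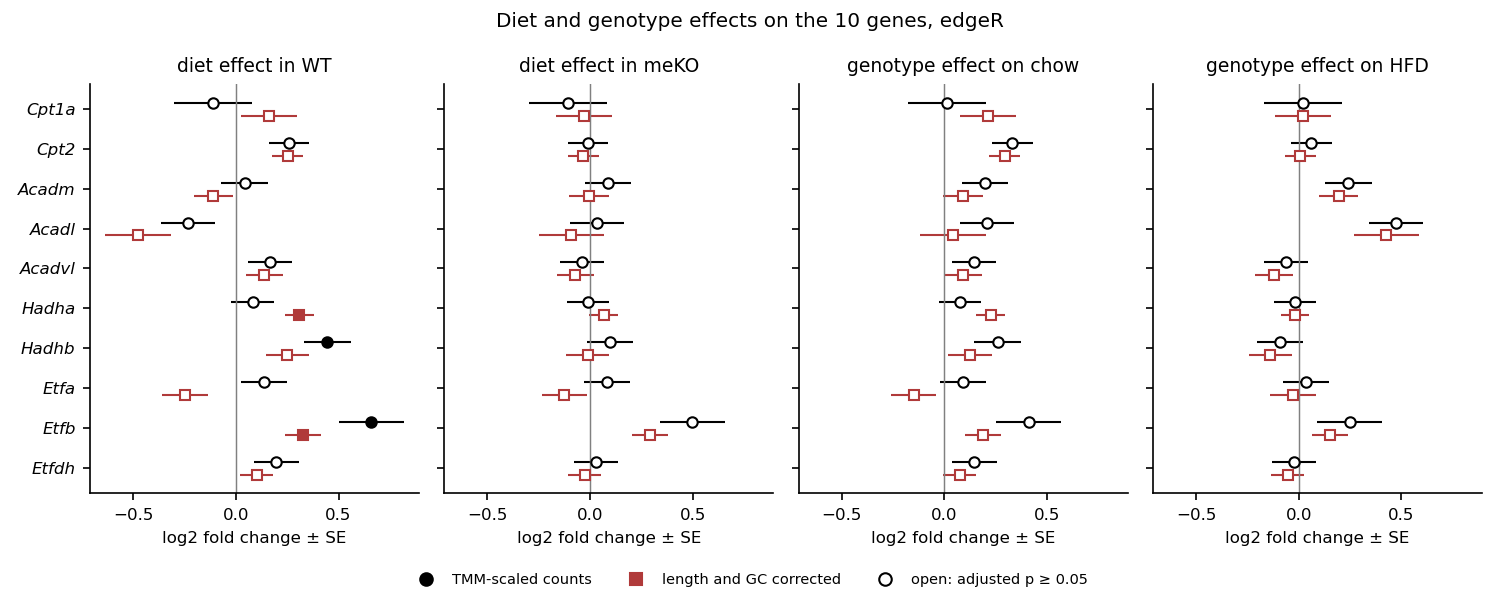
Log2 fold change ± SE of each gene for diet in WT and in meKO and for genotype on chow and on HFD, from TMM-scaled counts (circles) and after the length and GC correction (squares), with filled symbols at an adjusted p under 0.05. Etfb in WT is filled in both, at 0.66 and 0.33, while Hadhb is filled for the scaled counts alone and Hadha for the corrected values alone.

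Etfb, the beta subunit of the electron transfer flavoprotein, had the largest diet difference of the 10 genes in WT and in meKO by TMM-scaled counts; with the length and GC correction Acadl was larger in size in WT (-0.48 against 0.33). It lies at chr7:43444083-43457800 on the plus strand and stood at 52.2, 52.0 and 66.6 CPM in WT chow and 84.8, 82.3 and 103 in WT HFD. In meKO, Etfb was at 83.6, 74.9 and 68.6 CPM on chow and at 85.3, 131 and 104 on HFD. Within each genotype all 3 HFD libraries were above all 3 chow libraries, while meKO chow overlapped WT HFD. The diet difference was 0.66 ± 0.16 in WT (1.58-fold, adjusted p = 0.0192) and 0.50 ± 0.16 in meKO (1.41-fold, unadjusted p = 0.00751, adjusted p = 0.212).

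Averaged over genotypes, Etfb rose by 0.58 ± 0.11 (1.49-fold, adjusted p = 0.00622, higher in 6 of 6 HFD libraries within their genotype). This call held in 21 of 22 alternatives, at 0.31 to 0.65. Among them, the fit without a low-count filter repeated the main fit. The exception was the fit with WT chow replicates 1 and 2 both left out (0.46 ± 0.14). In WT alone the call was lost with both left out (0.43 ± 0.22, adjusted p = 0.545), without WT chow replicate 1 (0.0937) or 2 (0.0778) and without WT HFD replicate 1 (0.0508) or 3 (0.0919). With the length and GC correction the value in WT was 0.33 ± 0.09 (adjusted p = 0.0326) and in meKO 0.29 ± 0.09 (adjusted p = 0.128). The diet difference in meKO compares no WT libraries and was 0.49 ± 0.15 in the fit without WT chow replicates 1 and 2 (adjusted p = 0.192). The interaction was -0.16 ± 0.22 (adjusted p = 0.879). Etfb has the shortest transcript of the 10 (893 bases), and 617 bases of its exons lie in exons of Gm45233 on the same strand, so counting between these 2 genes is uncertain.

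Etfa, the alpha subunit (chr9:55454508-55512243, minus strand), stood at 75.9, 69.0 and 85.2 CPM in WT chow and 79.1, 83.1 and 90.8 in WT HFD. For Etfa in meKO the values were 85.2, 77.2 and 82.7 CPM on chow and 77.8, 86.5 and 95.1 on HFD. The groups overlapped, with diet differences of 0.14 ± 0.11 in WT (adjusted p = 0.373) and 0.08 ± 0.11 in meKO, and after the length and GC correction the value in WT was -0.25. Etfdh, which passes the electrons to ubiquinone (chr3:79603788-79629500, minus strand), ranged from 50.3 to 58.8 CPM in WT chow, from 60.0 to 64.2 in WT HFD, from 53.9 to 64.3 in meKO chow and from 55.7 to 66.0 in meKO HFD. The WT groups did not overlap, and the diet difference was 0.20 ± 0.11 in WT (adjusted p = 0.191) and 0.03 ± 0.11 in meKO. With WT chow replicates 1 and 2 left out, diet in WT gave -0.10 for Acadm, 0.02 for Acadvl, 0.21 for Hadha, -0.013 for Etfa and 0.08 for Etfdh, none past the threshold.

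Between genotypes on chow, the genes whose groups did not overlap differed in how far they rested on WT chow replicates 1 and 2. Etfb gave 0.41 ± 0.16 (adjusted p = 0.187), Hadhb 0.26 ± 0.11 (adjusted p = 0.229) and Acadm 0.20 ± 0.11. With WT chow replicates 1 and 2 both left out they were 0.18, 0.12 and 0.05, and with the length and GC correction 0.19, 0.12 and 0.09. Cpt2 was 0.35 and 0.29 in these fits. Without WT chow replicate 3, the library that did not stand apart, Cpt2 (0.34, adjusted p = 0.0379), Hadhb (0.34, 0.0476) and Etfb (0.55, 0.0340) passed on chow, and Acadl (0.0423), Acadm (0.0455) and Etfb (0.0354) passed averaged over diets. WT chow then held replicates 1 and 2 alone. That fit called 2543 of all 12339 genes for genotype on chow and 1400 averaged over diets, against 10 and 21 with all libraries.

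The promoter windows of both subunits of the flavoprotein are shown because of the ratio of their transcripts, given next. The diet test of that ratio was chosen after the values were seen. Capitals mark CCAAT boxes, read as ATTGG on the other strand, and the GC box.
Etfa, chr9:55512194-55512493: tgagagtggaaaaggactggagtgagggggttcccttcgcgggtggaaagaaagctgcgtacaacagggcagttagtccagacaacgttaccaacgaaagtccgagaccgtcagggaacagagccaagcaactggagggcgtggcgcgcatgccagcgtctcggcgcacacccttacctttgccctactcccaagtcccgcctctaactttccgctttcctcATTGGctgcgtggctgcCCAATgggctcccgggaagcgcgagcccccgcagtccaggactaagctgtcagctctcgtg
Etfb, chr7:43443822-43444121: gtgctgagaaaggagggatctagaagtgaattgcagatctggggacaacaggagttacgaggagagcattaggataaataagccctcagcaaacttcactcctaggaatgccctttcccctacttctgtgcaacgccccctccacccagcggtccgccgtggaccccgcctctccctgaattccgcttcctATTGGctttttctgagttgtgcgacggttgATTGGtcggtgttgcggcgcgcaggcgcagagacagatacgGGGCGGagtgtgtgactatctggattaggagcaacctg
Each window holds 2 CCAAT boxes, found in the windows of 4 of the 10 genes and in 37.41% of all windows, and Etfb holds 1 GC box in addition. AGGTCA, the hexamer that PPAR and RXR bind when repeated, was found in neither. It occurred in the windows of 3 of the 10 genes, Cpt1a, Acadm and Acadvl, and in 16.26% of all windows. The direct repeat was in 0 of 10 windows (0.04% of all), as were the estrogen-related receptor site (0.42%) and the cyclic AMP element (1.79%). No match says only that these letters are not in a window of 300 bases.

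Because partners act as complexes or in sequence, their ratios were compared within libraries, where scaling factors cancel. The 3 pairs and their test were chosen after the values of Etfb and Hadhb were seen. The Etfb to Etfa ratio of CPM was 0.688, 0.754 and 0.783 in WT chow and 1.07, 0.990 and 1.13 in WT HFD. In meKO the ratio was 0.981, 0.971 and 0.829 on chow and 1.10, 1.52 and 1.10 on HFD. Within each genotype the HFD libraries were above the chow libraries without overlap. The diet difference was 0.46 on the log2 scale, higher in 6 of 6 HFD libraries within their genotype (exact two-sided permutation test within genotypes, p = 0.005, the smallest that 400 arrangements allow, 0.03 adjusted over 6 tests, n = 12). It was 0.49 after the length and GC correction. The adjusted p was 0.06 without meKO chow replicate 3. With WT chow replicates 1 and 2 both left out the difference was 0.42. With 1 WT chow library left, too few arrangements remained for this difference alone to pass after adjustment, so that test cannot decide. The genotype difference in this ratio was 0.26 (exact permutation test, p = 0.02, 0.06 adjusted), which did not pass; its adjusted p was 0.03 without meKO HFD replicate 1 or without meKO HFD replicate 3.

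The Hadhb to Hadha ratio had a mean of 0.109 ± 0.0177 in WT chow, 0.139 ± 0.00414 in WT HFD, 0.123 ± 0.0110 in meKO chow and 0.133 ± 0.0168 in meKO HFD (SD, n = 3). Its diet difference was 0.24 (exact permutation test, p = 0.055, 0.11 adjusted) and became -0.07 with the length and GC correction. The size of this ratio is uncertain where reads of the near copies of Hadhb were shared. The Cpt2 to Cpt1a ratio ran from 0.0716 to 0.149 over all libraries, with a diet difference of 0.23 (exact permutation test, p = 0.17, 0.255 adjusted) and a genotype difference of 0.18 (p = 0.275, 0.33 adjusted, exact). Of the 6 comparisons, the diet difference in the Etfb to Etfa ratio alone passed. The size of that ratio is uncertain too where reads of near copies were shared. Etfb has Gm45233 (626 bases at 99.7% identity). Etfa has the processed pseudogenes Gm15285 (486 bases at 93.4%) and Gm15289 (244 bases at 95.1%).

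**Figure D4:**
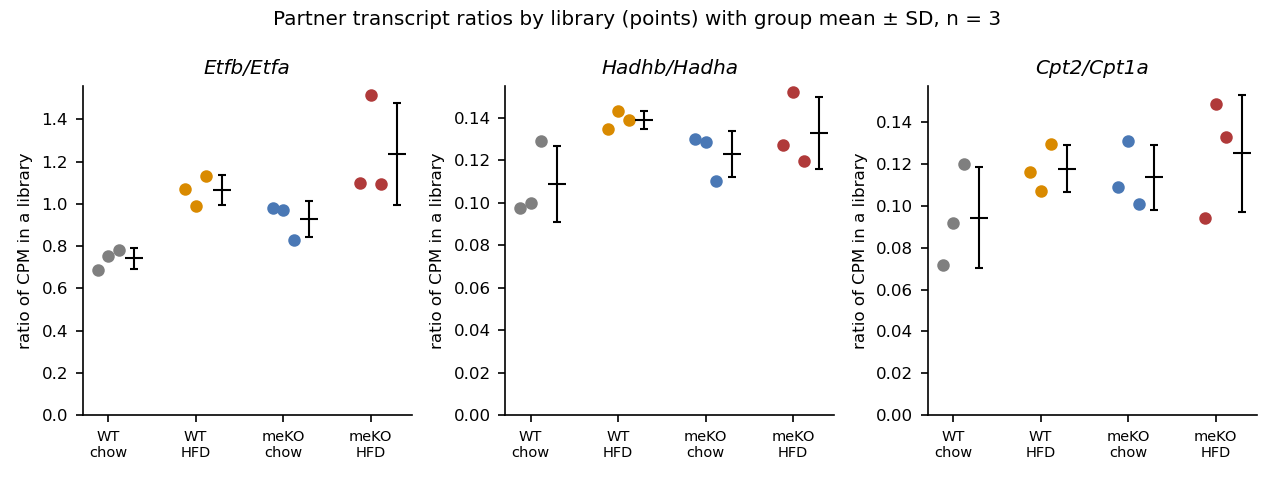
Ratio of CPM between partner genes in each library (points) with the group mean ± SD (n = 3), on axes from 0. For Etfb to Etfa the HFD points lie above the chow points of the same genotype, while the groups of the other 2 ratios overlap in meKO.

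Other genes of the pathway were followed in 12 lists with 104 genes in the table. For diet in WT, 20 passed, 13 higher and 7 lower, and averaged over genotypes 29 passed, 15 higher and 14 lower, in comparisons that called 21.3% and 30.2% of all genes. In the other 5 comparisons 0 of 104 passed by edgeR, with 13 at an unadjusted p under 0.05 for diet in meKO, 23 for genotype on chow, 5 on HFD, 3 for the interaction and 22 for genotype averaged over diets. Of the 20 in WT, 9 passed with the length and GC correction (13 in all) and 0 with WT chow replicates 1 and 2 both left out, where all 20 had the same sign as before. Of the 29, 16 passed with the length and GC correction (28 in all) and 28 had the same sign, Hsd17b10 being the exception, and 4 passed with both libraries left out: Hilpda, Nr1h3, Plin2 and Rxra.

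In the lists of carnitine shuttle, short-chain, unsaturated and odd-chain and flavoprotein partner genes, those that passed by TMM-scaled counts were higher on HFD. Slc25a20, the carnitine-acylcarnitine carrier between Cpt1a and Cpt2, stood at 34.3, 30.1 and 30.7 CPM in WT chow and 36.3, 42.0 and 42.4 in WT HFD (0.34 ± 0.10, adjusted p = 0.0339). Its diet difference in meKO was 0.32 ± 0.10 (adjusted p = 0.213). Crat, Crot and Slc22a5 did not pass (0.01, 0.02 and 0.06 in WT). Of 6 short-chain genes, Acaa2, the medium-chain thiolase, rose in WT (0.41 ± 0.11, adjusted p = 0.0239), and Hsd17b10 rose averaged over genotypes (0.29 ± 0.10, adjusted p = 0.0345). Acads, Acadsb, Hadh and Echs1 gave 0.24, -0.05, -0.12 and 0.14 in WT and did not pass. Of 8 genes for unsaturated and odd chains, Ech1 (0.55 ± 0.14, adjusted p = 0.0231) and Mcee (0.61 ± 0.20, adjusted p = 0.0452) rose in WT, and 0 fell. Etfbkmt, which methylates the Etfb protein, rose too (0.40 ± 0.13, adjusted p = 0.0460).

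The length and GC correction took most of these calls away and brought others. In WT, Slc25a20 was then at 0.14 (adjusted p = 0.382), Acaa2 at 0.19 (0.104), Mcee at 0.16 (0.247) and Etfbkmt at 0.03 (0.916), none past the threshold, while Ech1 passed at 0.30 (0.0344). Hsd17b10 averaged over genotypes turned to -0.02 (adjusted p = 0.752). Hadh, the short-chain hydroxyacyl-CoA dehydrogenase, passed as lower in WT (-0.30, adjusted p = 0.0400) and averaged (-0.27, 0.0109), and Crat as higher in WT (0.31, 0.0294). With WT chow replicates 1 and 2 left out and no correction, diet in WT gave 0.39 for Slc25a20, 0.22 for Acaa2, 0.28 for Ech1, 0.28 for Mcee and 0.35 for Etfbkmt, and Hsd17b10 averaged was 0.17.

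In the lists of activation, peroxisomal and malonyl-CoA control genes, those that passed by TMM-scaled counts were lower on HFD. Among 9 fatty acid activation genes, Acsf2 fell (7.53, 7.58 and 6.51 CPM in WT chow against 3.88, 3.34 and 3.07 in WT HFD, -1.07 ± 0.20, adjusted p = 0.0107), as did Acsl5 (-0.34 ± 0.10, adjusted p = 0.0377). Averaged over genotypes, Acsl1 (-0.33 ± 0.10, adjusted p = 0.0242) and Acss1 (-0.34 ± 0.12, adjusted p = 0.0407) fell as well. Of 12 peroxisomal genes, 0 passed in WT, and those described here that fell averaged over genotypes were Acox3 (-0.34 ± 0.10) and Abcd2 (-0.42 ± 0.12). Acad10, of 7 other acyl-CoA dehydrogenases, fell in WT (-0.43 ± 0.15, adjusted p = 0.0494). Of 7 genes of malonyl-CoA control, Prkag2, an AMPK subunit, fell in WT (-0.77 ± 0.16, adjusted p = 0.0128). With the length and GC correction Acsf2 (-0.89) and Prkag2 (-0.65) passed in WT and Acsl1 (-0.21) averaged, while Acsl5 (-0.14) and Acad10 (-0.15) in WT, and Acss1 (-0.21), Acox3 (-0.17) and Abcd2 (-0.31) averaged, did not. Without WT chow replicates 1 and 2 none of these passed, and diet in WT gave -0.92 for Acsf2, -0.20 for Acsl5, -0.42 for Acad10 and -0.55 for Prkag2. Averaged values were then -0.23 for Acsl1, -0.23 for Acss1, -0.25 for Acox3 and -0.45 for Abcd2.

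PPAR and coactivator genes went both ways: of 10, Pparg (0.55 ± 0.17) and Nr1h3 (0.59 ± 0.12) rose in WT, and Rxra (-0.91 ± 0.16) and Ppard (-0.77 ± 0.16) fell. Ppara was not analysed here. Of 11 PPAR target genes outside oxidation, 3 rose in WT: Hilpda (1.31 ± 0.15), Plin2 (0.45 ± 0.11) and Cd36 (0.48 ± 0.15). Acot2 fell averaged over genotypes (-0.38 ± 0.14, adjusted p = 0.0458). Hilpda, which inhibits triglyceride lipase at lipid droplets, stood at 67.6, 72.8 and 72.5 CPM in WT chow and 197, 147 and 184 in WT HFD. Plin2, a lipid droplet coat protein, rose to 2933 ± 238 CPM in WT HFD from 2148 ± 206 in WT chow (SD, n = 3). Of 18 TCA cycle genes, Suclg1 (0.48), Sucla2 (0.41) and Mdh2 (0.35) rose in WT and Ogdh fell (-0.96 ± 0.19).

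With the length and GC correction, Nr1h3 (0.57), Rxra (-0.49), Ppard (-0.51), Hilpda (0.89), Sucla2 (0.22) and Ogdh (-0.68) passed in WT. Pparg (0.45, adjusted p = 0.0501), Cd36 (0.43, 0.0509), Plin2 (0.31, 0.0750), Suclg1 (0.22, 0.0800) and Mdh2 (0.16, 0.180) did not, and Acot2 averaged passed (-0.41, 0.0391). Without WT chow replicates 1 and 2, diet in WT gave 1.28 for Hilpda (adjusted p = 0.0853), 0.56 for Plin2, 0.51 for Cd36, 0.49 for Nr1h3 and 0.24 for Pparg. It gave -0.57 for Rxra, -0.55 for Ppard, -0.49 for Ogdh, 0.24 for Suclg1, 0.22 for Sucla2 and 0.27 for Mdh2, and Acot2 averaged was -0.38.

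**Figure D5:**
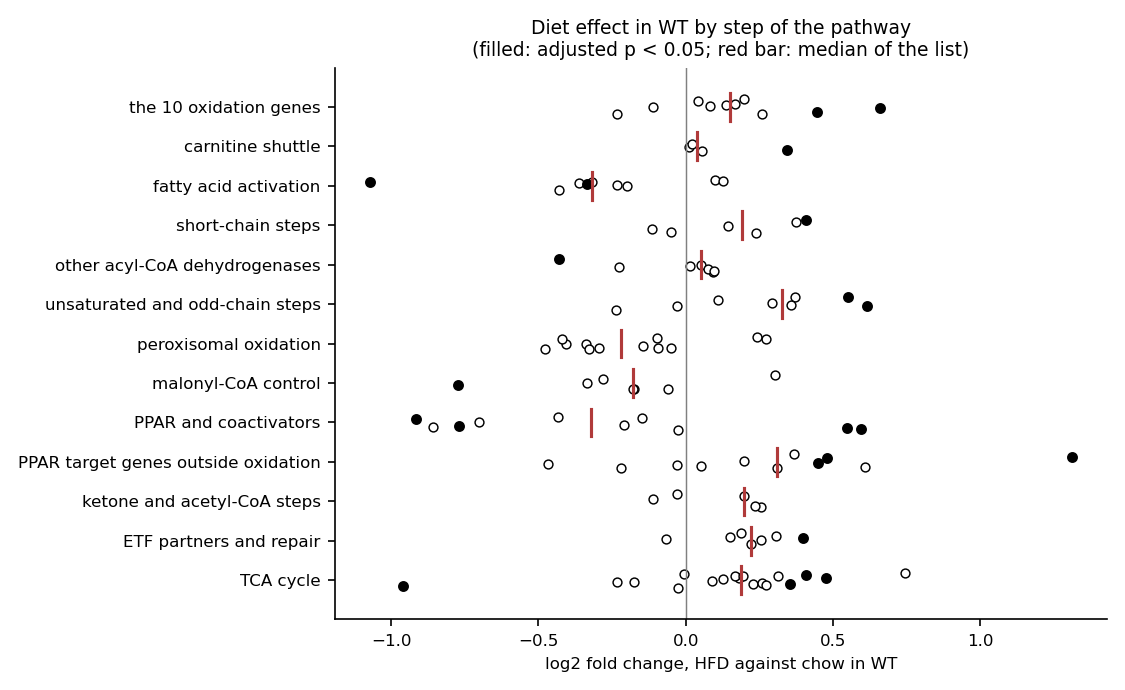
Log2 fold change of HFD against chow in WT for the 10 oxidation genes and the 12 lists, 1 point per gene, filled at an adjusted p under 0.05, with a red bar at the median of the list. The median of the 10 is 0.15, that of fatty acid activation -0.32 and that of peroxisomal oxidation -0.22.

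The genes whose centred log2 CPM lay closest to Etfb over the 12 libraries were Ssr2 (root mean square difference 0.0583), Cdk4 (0.0629) and Atp5po (0.0654), against a spread of Etfb about its own mean of 0.376. Those closest to Hadhb were Ubxn6 (0.0652), Abhd16a (0.0662) and Coq10a (0.0671), against a spread of 0.188. Their diet differences in WT were 0.67, 0.60 and 0.64 for the first 3 and 0.38, 0.36 and 0.38 for the others. Likeness was chosen on these values and is a description.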

How the data were processed

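RNA of 12 macrophage libraries (TruSeq, total RNA) was measured by sequencing. The deposited table holds the authors' raw counts for 12339 genes in 12 libraries; the submitters' processing notes name DESeq2 and mm10, and the aligner, counter and strand setting are not given in the sources used here. Groups come from the labels, and replicate numbers follow accession order and pair nothing. Counts were scaled with TMM factors and tested with edgeR 4.0.16 (robust quasi-likelihood, 4 group means, 12 libraries, R 4.3.3), adjusted over all genes by Benjamini-Hochberg with a threshold of 0.05. Fold changes are HFD minus chow or meKO minus WT on the log2 scale, and the interaction is the diet difference in meKO minus that in WT. SE is the fold change divided by the square root of F.

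DESeq2 1.42.0, limma 3.58.1, other scalings, a count minimum of 10, a length and GC correction (11532 genes, GENCODE M21) and left-out libraries were tried as alternatives. Near copies were found with BLAST 2.17.0 (at least 100 bases at 90% identity). Promoters are from RefSeq, where all 10 genes matched, and positions from GENCODE M21 on GRCm38.

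Named were the 10 genes, the carnitine shuttle and short-chain lists, up to 4 called genes in each other list by the smallest p for diet averaged over genotypes, and the 3 genes most like each called gene. Some genes of the peroxisomal list are not reported here by name. Genes and lists were chosen with earlier results of these data known. The scripts were tested on simulated data.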

Additional observations from a re-analysis of the deposited data

How the results depend on the processing

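Of 1580 combinations of a fold change of the 10 genes and an alternative, 1438 kept their direction and side of the threshold, 23 lost and 25 gained the call, and 94 changed sign, 0 of them while past the threshold; the causes were not tested. Among the alternatives, the fit without a low-count filter kept the same 12339 genes as the main fit, so its agreement was fixed in advance. No paired analysis was possible because the labels carry no replicate numbers. Leaving out WT chow replicates 1 and 2 together, and the partner ratios, were chosen after seeing the data. Cpt2 and Hadhb had the fewest counts, 570 to 953 per library.

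With library quality weights the genes called numbered 5 for diet in WT, 1 for diet in meKO, 4 for genotype on chow, 1 on HFD and 4 for genotype averaged. Diet averaged called 3 there. Of all 12339 genes, this setting called 6411, 398, 4047, 128 and 3835 in the same order, and 6298 for diet averaged. DESeq2 called 1 for genotype on chow, 1 for genotype averaged and 3 for diet in WT. Its counts over all genes were 591, 366 and 3451. Scaling by library totals called 1 for diet averaged, beside 3750 of all genes. With WT chow replicates 1 and 2 left out, diet in WT and diet averaged called 0. Leaving out 1 library at a time gave 0 to 2 for diet in WT, 0 to 0 for diet in meKO, 0 to 3 for genotype on chow, 0 to 0 on HFD, 0 to 0 for the interaction, 1 to 2 for diet averaged and 0 to 3 for genotype averaged. Each 3 came without WT chow replicate 3, where 2543 of all genes were called for genotype on chow and 1400 averaged.

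The length and GC correction turned the sign for diet in WT in Cpt1a (0.16), Acadm (-0.11) and Etfa (-0.25), for diet in meKO in Acadm (-0.0059), Acadl (-0.091), Hadha (0.066), Hadhb (-0.012), Etfa (-0.13) and Etfdh (-0.027), for genotype on chow in Etfa (-0.15), for HFD-fed mice by genotype in Etfa (-0.027). It also did so for the interaction in Cpt1a (-0.19) and Etfa (0.12), for diet averaged in Cpt1a (0.065), Acadm (-0.058) and Etfa (-0.19), for genotype averaged in Acadvl (-0.015), Hadhb (-0.0068) and Etfa (-0.089). The Hadhb to Hadha ratio became -0.071 for diet and -0.11 for genotype.

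Leaving out WT chow replicates 1 and 2 together turned the sign for diet in WT in Cpt1a (0.31), Acadm (-0.10) and Etfa (-0.013), for genotype on chow in Acadvl (-0.0070) and Etfa (-0.060), for the interaction in Cpt1a (-0.42), Etfa (0.091) and Etfb (0.061). It also did so for diet averaged in Cpt1a (0.10), Acadm (-0.011) and Acadvl (-0.013), for genotype averaged in Acadvl (-0.036) and Etfa (-0.014). The genotype difference became -0.073 in the Hadhb to Hadha ratio and -0.0089 in Cpt2 to Cpt1a.

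Scaling by library totals turned the sign for diet in WT in Acadm (-0.041) and Hadha (-0.0072), for diet in meKO in Acadl (-0.0027) and Etfdh (-0.0092), for genotype on chow in Cpt1a (-0.067). It also did so for diet averaged in Hadha (-0.026), for genotype averaged in Cpt1a (-0.031), Acadvl (-0.0032) and Hadha (-0.019). Library quality weights turned it for diet in meKO in Hadha (0.046), for genotype on chow in Cpt1a (-0.17), for HFD-fed mice by genotype in Cpt1a (-0.11) and Hadha (0.00086). It also did so for the interaction in Acadm (-0.092) and Etfa (0.013), for genotype averaged in Cpt1a (-0.14). It was turned with the 6 compared libraries alone for genotype on chow in Cpt1a (-0.0016), with limma-voom for HFD-fed mice by genotype in Cpt1a (-0.0033) and for the interaction in Cpt1a (-0.039), with median-of-ratios factors for the interaction in Cpt1a (-0.0098), with the count minimum for the interaction in Cpt1a (-0.0053), with DESeq2 for the interaction in Cpt1a (-0.010).

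Leaving out 1 library turned the sign for diet in WT in Cpt1a (-0.28 to 0.082) and Acadm (-0.0027 to 0.13), for diet in meKO in Cpt1a (-0.33 to 0.024), Cpt2 (-0.065 to 0.035), Acadm (-0.0055 to 0.14), Acadl (-0.083 to 0.18), Acadvl (-0.12 to 0.012), Hadha (-0.087 to 0.038) and Etfdh (-0.051 to 0.093). It turned for genotype on chow in Cpt1a (-0.15 to 0.21), for HFD-fed mice by genotype in Cpt1a (-0.20 to 0.14), Hadha (-0.079 to 0.022), Etfa (-0.042 to 0.11) and Etfdh (-0.089 to 0.041), for the interaction in Cpt1a (-0.21 to 0.16), Acadm (-0.054 to 0.10) and Etfa (-0.16 to 0.015), for genotype averaged in Cpt1a (-0.092 to 0.11).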
